A study of Mus musculus with 18 samples.

Results

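The wide H3K4me2 domains of mature neutrophils were 2530 of the 44094 H3K4me2 peaks deposited for mature neutrophils (matNeus), or 5.74% of them. A peak was a member where it was at least 5000 bp wide and shared at least 1 bp with an H3K4me2 peak of granulocyte-monocyte progenitors (GMPs). Members were thus selected on measured values, the width of the matNeu peak and its overlap with the GMP peaks, so those 2 properties are given as a description and carry no test. The peaks of neutrophil precursors (preNeus), the CHD4 peaks, the ATAC-seq peaks and the expression levels played no part in the choice. The domains covered 22.3 Mb, 27.8% of all DNA under matNeu H3K4me2 peaks, and 216 other matNeu peaks of that width met no GMP peak and were left out.

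All cells were sorted from the bone marrow of C57BL/6 mice aged 6 to 12 weeks. GMPs were lineage-negative cKIT+ SCA- CD16/32+ CD34+ cells, the shared precursors of granulocytes and monocytes, and preNeus and matNeus were later stages of the neutrophil branch. H3K4me2 was profiled by ChIP-seq in wild type GMPs, preNeus and matNeus, and CHD4 by ChIP-seq in GMPs of wild type mice and of Gfi1-/- mice, which lack GFI1 in every cell. Open chromatin was profiled by ATAC-seq in samples titled as wild type preNeus and matNeus. Each sample had 1 peak list. RNA-seq gave transcript abundances as TPM, a share of all transcripts scaled to the same sum in every library, in 3 libraries each of GMPs, preNeus and matNeus. The titles of these libraries name no genotype. The labels do not say whether the 3 came from separate mice, so p-values measure only the spread between these libraries. Since each kind of peak list came from 1 library, no difference between peak lists has a replicate check, and the intervals given with them cover counting error only.

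Dimethylation of lysine 4 on histone H3 (H3K4me2) marks promoters and enhancers, whether in use or held ready, and unusually long stretches of H3K4 methylation tend to lie over genes that define a cell's identity. CHD4 is the ATP-dependent remodelling subunit of the NuRD complex, which also carries histone deacetylases and is known for limiting access to enhancers. GFI1 is a zinc finger repressor that is required for neutrophil formation and recruits histone-modifying complexes to DNA. Neutrophils make their granule proteins in waves, with the primary granule enzymes in GMPs, the secondary granule proteins in preNeus, and gelatinase and surface receptors in matNeus.

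The expression libraries showed the defining markers of their stage. The summed level of 6 GMP markers, among them Mpo and Elane, lay between 45267 and 47154 TPM in GMPs, between 8320.3 and 9359.6 TPM in preNeus and between 9.32 and 32.7 TPM in matNeus. The 6 preNeu markers summed to 148709 to 174930 TPM in preNeus against at most 6802 TPM in matNeus and 129 TPM in GMPs, and the 6 matNeu markers to 27063 to 30384 TPM in matNeus against at most 1037 TPM elsewhere. Markers of B cells summed to at most 136 TPM, of T cells to at most 15.1 TPM and of erythroid cells to at most 15.6 TPM in any library, whereas those of monocytes and macrophages lay between 3808 and 4593 TPM in GMPs and between 1128 and 1495 TPM in matNeus. Markers of eosinophils and basophils summed to 938 to 1182 TPM in GMPs, 90.3 to 141 TPM in preNeus and 33.6 to 49.96 TPM in matNeus, and those of megakaryocytes to 35.4 to 49.6 TPM in GMPs and at most 7.93 TPM later. The part of such cells in the expression results was not tested. For 13 of the 18 samples the cell type given in the title differed from the one in another label, and the titles were followed. The 3 H3K4me2 lists differed in reach, with 37643 peaks over 49.8 Mb in GMPs, 49578 peaks over 97.9 Mb in preNeus and 44094 peaks over 80.4 Mb in matNeus. The median fold enrichment of a peak was 2.89 in GMPs, 4.55 in preNeus and 3.78 in matNeus, so a stretch without a GMP peak may carry less of the mark or may lie in a list that reached less far, and the files do not tell these apart.

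The DNA under 7 CHD4 peaks shows sites of CHD4 signal in GMPs inside stretches that were wide domains in matNeus. The windows are 200 bp around the summit of the strongest CHD4 peak of WT GMPs that lay clear of annotated exons, in 7 domains the results below turn on (genome build GRCm38, plus strand, 5′ to 3′). Capitals mark matches, on either strand, to short forms of motifs known for myeloid factors, AAATCA for GFI1, TTGCNNAA for C/EBP factors, GAGGAAGT for PU.1, TGTGGTT for RUNX factors and TGANTCA for AP-1. A match is a description of the letters, not of binding.
S100a9 window: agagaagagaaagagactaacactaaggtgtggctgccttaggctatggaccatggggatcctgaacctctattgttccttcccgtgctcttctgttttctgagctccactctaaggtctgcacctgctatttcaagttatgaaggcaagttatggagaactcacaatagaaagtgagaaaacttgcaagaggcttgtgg
Mmp8 window: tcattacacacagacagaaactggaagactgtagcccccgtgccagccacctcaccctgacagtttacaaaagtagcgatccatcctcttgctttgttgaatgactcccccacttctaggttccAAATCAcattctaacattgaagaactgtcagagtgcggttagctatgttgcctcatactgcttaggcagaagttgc
Fpr1 window: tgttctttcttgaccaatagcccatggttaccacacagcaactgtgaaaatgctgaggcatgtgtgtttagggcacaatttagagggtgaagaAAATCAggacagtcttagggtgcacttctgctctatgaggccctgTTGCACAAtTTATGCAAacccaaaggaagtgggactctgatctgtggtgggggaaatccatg
Ptprc window: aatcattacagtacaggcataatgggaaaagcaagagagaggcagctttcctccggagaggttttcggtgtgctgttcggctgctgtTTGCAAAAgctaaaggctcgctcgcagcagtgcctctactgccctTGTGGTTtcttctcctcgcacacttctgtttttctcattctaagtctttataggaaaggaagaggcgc
Tbc1d8 window: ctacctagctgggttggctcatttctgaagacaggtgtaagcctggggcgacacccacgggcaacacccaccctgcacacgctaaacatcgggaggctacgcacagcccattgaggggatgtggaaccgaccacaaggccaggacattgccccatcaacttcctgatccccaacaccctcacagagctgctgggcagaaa
Myh9 window: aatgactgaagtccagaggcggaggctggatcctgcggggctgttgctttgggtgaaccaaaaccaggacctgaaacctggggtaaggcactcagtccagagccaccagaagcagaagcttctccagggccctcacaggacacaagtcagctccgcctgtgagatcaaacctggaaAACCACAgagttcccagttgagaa
Myc window: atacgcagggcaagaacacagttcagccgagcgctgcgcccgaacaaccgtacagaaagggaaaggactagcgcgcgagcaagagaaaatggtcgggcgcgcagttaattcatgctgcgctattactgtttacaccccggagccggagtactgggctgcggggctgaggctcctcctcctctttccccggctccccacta
Distances are from the gene start, negative where the window lay upstream. The S100a9 window (chr3:90686618-90686817) lay outside coding genes, at 9003 bp from the S100a9 start, with a CHD4 fold enrichment of 14.7. The Mmp8 window (chr9:7558214-7558413) lay outside coding genes, at -142 bp from the Mmp8 start, with a CHD4 fold enrichment of 49.0. The Fpr1 window (chr17:17900823-17901022) lay in an intron of Fpr3, at -16983 bp from the Fpr1 start, with a CHD4 fold enrichment of 22.6. The Ptprc window (chr1:138136388-138136587) lay in an intron of Ptprc, at 39220 bp from the Ptprc start, with a CHD4 fold enrichment of 57.3. The Tbc1d8 window (chr1:39469041-39469240) lay in an intron of Tbc1d8, at 9614 bp from the Tbc1d8 start, with a CHD4 fold enrichment of 16.4. The Myh9 window (chr15:77813819-77814018) lay in an intron of Myh9, at 28256 bp from the Myh9 start, with a CHD4 fold enrichment of 7.72. The Myc window (chr15:61985039-61985238) lay outside coding genes, at -252 bp from the Myc start, with a CHD4 fold enrichment of 15.8. The windows of Fpr1 and Myh9 lay outside GMP H3K4me2 peaks, and the CHD4 peaks of the Mmp8, Fpr1, Ptprc and Myc windows overlapped one in Gfi1-/- GMPs while those of S100a9, Tbc1d8 and Myh9 did not. No searched motif was found in the S100a9, Tbc1d8 and Myc windows.

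Motif matches were common enough in such windows that their presence in a given window says little. Among the 4139 CHD4 summits inside domains on the assembled chromosomes, 10.7% (95% Wilson interval 9.82 to 11.7) of the 200-bp windows held the GFI1 letters, against 12.2% (11.9 to 12.6) of the 31589 windows outside. C/EBP letters stood in 19.9% (18.7 to 21.1) of the windows inside and in 16.9% (16.5 to 17.3) of those outside, and PU.1 letters in 11.4% (10.4 to 12.4) and 11.8% (11.4 to 12.2). RUNX letters were found in 9.54% (8.69 to 10.5) against 10.5% (10.2 to 10.8), and AP-1 letters in 8.50% (7.69 to 9.39) against 10.4% (10.02 to 10.7). Within the domains, the C/EBP share was 22.9% (20.9 to 25.1) for the 1575 summits that no GMP H3K4me2 peak covered and 17.98% (16.5 to 19.5) for the 2564 that one did. These shares were not matched for base composition.

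At the GMP stage the domains were mostly marked in part, and by the preNeu stage most were marked over nearly their whole length. GMP peaks covered a median of 46.9% of a domain (quartiles 28.6 and 69.0), and preNeu peaks covered a median of 96.3% (86.4 and 100). In 541 domains GMP peaks covered under 25% of the length, in 189 at least 90% and in 46 all of it. In preNeus 1694 domains were covered over at least 90% of the length, 837 over all of it and 28 over less than 50%. The preNeu share exceeded the GMP share in 2456 domains, equalled it in 38 and was lower in 36, and the median gain was 41.6 percentage points (23.1 to 60.8). A set of 250 domains went from under 25% in GMPs to at least 90% in preNeus.

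The widths of the overlapping peaks followed the same order. The widest GMP peak over a domain had a median width of 3041 bp (1733 to 4640), the widest preNeu peak 7303 bp (5823 to 10005), and the domain itself 7182 bp (5864 to 9797, range 5001 to 62029). A domain was a median of 2.64 times (1.64 to 4.94) as wide as its widest GMP peak and 0.999 times (0.885 to 1.17) as wide as its widest preNeu peak. Of the 2530 domains, 528 (20.9%) met a GMP peak of at least 5000 bp and 2198 (86.9%) a preNeu peak of that width. The GMP side was fragmented, with 1 overlapping peak at 1333 domains, 2 at 802 and 3 or more at 395, up to 10, whereas 2040 domains met 1 preNeu peak. Seen from the other side, the 739 GMP peaks of at least 5000 bp were covered by matNeu peaks over a median of 96.5% of their length (78.0 to 100) and 535 of them met a matNeu peak of at least 5000 bp. Of the 3804 preNeu peaks that wide, 2221 (58.4%) overlapped a domain.

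**Figure D1:**
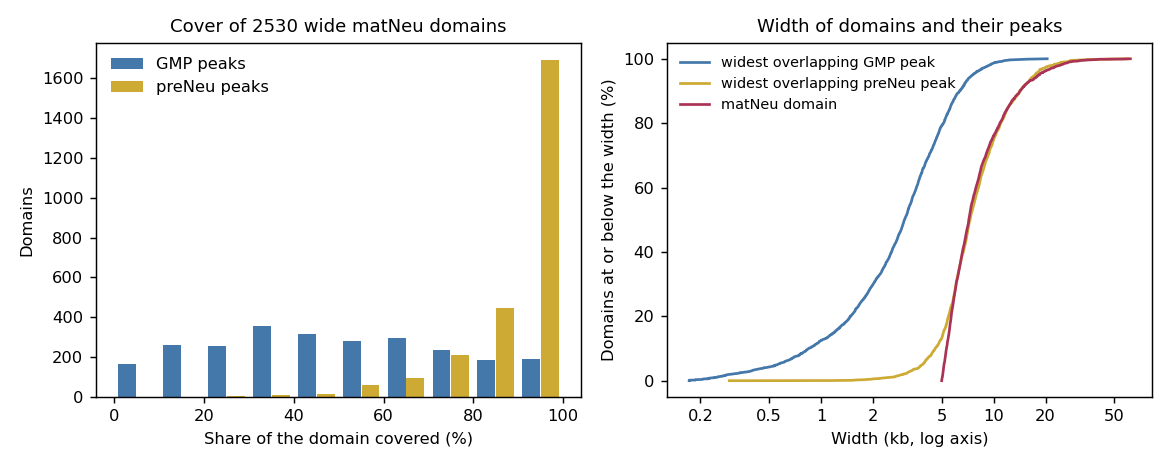
Left, number of the 2530 domains (y axis) by the share of their length covered by GMP or preNeu H3K4me2 peaks (x axis, percent, bins of 10 points). Right, cumulative share of domains (y axis, percent) by width (x axis, kb, log scale) for the domain itself and its widest overlapping GMP and preNeu peak. The GMP shares spread over all bins with 164 to 355 domains in each, 1694 domains fall in the top preNeu bin, and the median of the widest preNeu peak, 7303 bp, lies close to that of the domain, 7182 bp.

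The narrower matNeu peaks that met a GMP peak, 21607 in all, were already covered further in GMPs, with a median of 77.8% (50.9 to 97.0) of their length, and preNeu peaks covered a median of 100% (94.4 to 100). A short peak is covered by a short overlap, so the width limit itself enters this difference. Among the domains the GMP share fell with width, from a median of 57.1% in the 714 domains under 6000 bp to 31.2% in the 95 domains of at least 20000 bp, while the widest GMP peak grew from 2825 to 3854 bp.

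Most domains held the start of a gene. The annotated start of at least 1 protein-coding gene lay in 1591 domains (62.9%), 646 (25.5%) lay in the body of a coding gene without its start, and 293 (11.6%) lay outside coding genes, against 38.6%, 32.1% and 29.2% of the narrower peaks. The 3 classes differed in how far GMP peaks reached, with a median of 55.6% covered for domains with a gene start, 32.9% for those in gene bodies and 30.3% for those outside genes, whereas the preNeu medians were 97.2%, 93.6% and 95.04%. In the 1338 domains with exactly 1 coding start, the domain ran a median of 1504 bp upstream of the start and 5558 bp downstream, and in 1186 (88.6%) it reached further downstream than upstream. Over their whole length, domains with a gene start were poorer in CpG than narrower peaks with one, with a median of 22.6 CpG per kb (16.2 to 30.4) against 42.2 (32.5 to 55.6). Their median widths were 7284 and 2124 bp, and the part of width in this difference was not tested. ATAC-seq peaks, which came as 1 list whose stage between preNeu and matNeu could not be settled, stood in 85.7% of the domains (84.3 to 87.0) and in 34.8% of the narrower peaks (34.1 to 35.4), a share that also depends on length.

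The width limit separated peaks that differed by few bases. The narrowest members, each 5001 bp wide, held the starts of Ctdsp1, Galc and Snx32 and were covered by GMP peaks over 89.4%, 40.1% and 65.9%. The widest peaks that missed the limit were 4999 bp wide outside coding genes, 4998 bp in the body of Ethe1 and 4996 bp at the start of Mpp1, with 34.5%, 65.0% and 23.4% covered.

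The widest domain, 62029 bp (chr15:77796627-77858655), lay over Myh9, the heavy chain of non-muscle myosin IIA that drives contraction of the cell cortex. Separate GMP peaks, 10 in number and at most 8499 bp wide, covered 36.4% of it, and 2 preNeu peaks covered 90.4%. Myh9 stood at 31.8, 40.9 and 36.1 TPM in GMPs, 78.1, 101 and 108 TPM in preNeus and 189, 172 and 195 TPM in matNeus. The groups did not overlap, and the increase from GMPs to matNeus was a log2 change of 2.33 ± 0.15 SE, adjusted p = 1.46e-07. It held 9 CHD4 peaks of WT GMPs, and none of them overlapped a CHD4 peak of Gfi1-/- GMPs.

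The domain over S100a8 and S100a9 (chr3:90654758-90711190, 56433 bp) was the widest of those nearly unmarked in GMPs. These genes encode the subunits of calprotectin, an abundant protein complex of the neutrophil cytosol. The GMP peaks here, 5 in number and at most 582 bp wide, covered 1663 bp of the domain, 2.95% of it, and in preNeus a single peak of 55632 bp covered 98.6%. S100a9 was measured at 3.83, 5.48 and 4.27 TPM in GMPs, 18831, 14646 and 16581 TPM in preNeus and 17351, 11467 and 8880.4 TPM in matNeus, and S100a8 at 22.1, 44.4 and 28.9 TPM in GMPs, 29349, 24049 and 25918 TPM in preNeus and 32249.6, 24702 and 14320.2 TPM in matNeus. Both genes had a higher mean in preNeus than in matNeus, with libraries that overlapped between these stages. From GMPs to matNeus the change was a log2 change of 11.11 ± 0.22 SE, adjusted p = 8.34e-11 for S100a9 and a log2 change of 9.48 ± 0.29 SE, adjusted p = 6.78e-10 for S100a8. The 7 CHD4 peaks inside were all absent from the Gfi1-/- list.

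Tbc1d8, a member of the TBC family of regulators of Rab GTPases, lay in a domain of 58356 bp (chr1:39425600-39483955) that GMP peaks covered over 18.8% and 1 preNeu peak over its whole length. Its level peaked in preNeus, at 22.3, 23.0 and 14.5 TPM in GMPs, 110.3, 132 and 149.8 TPM in preNeus and 37.3, 44.7 and 49.7 TPM in matNeus. It rose from GMPs to preNeus (log2 change 2.67 ± 0.20 SE, adjusted p = 2.47e-06) and fell from preNeus to matNeus (log2 change -1.55 ± 0.20 SE, adjusted p = 5.99e-05). Ptprc, which encodes the leukocyte phosphatase CD45, had a domain of 52198 bp (chr1:138124194-138176391) with 12.5% covered in GMPs and 7 preNeu peaks over 80.8%. Ptprc was measured at 149.7, 128 and 107 TPM in GMPs, 245, 262 and 289.8 TPM in preNeus and 1400.0, 1319 and 1685 TPM in matNeus, without overlap between groups, and rose from GMPs to matNeus (log2 change 3.51 ± 0.15 SE, adjusted p = 4.4e-09).

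The formyl peptide receptor genes Fpr1, Fpr2 and Fpr3 started in a domain of 40103 bp (chr17:17861816-17901918), 7.64% of it covered in GMPs and 85.5% in preNeus. Formyl peptide receptors guide neutrophils towards bacteria. Fpr1 was at 0.233, 0.113 and 0.308 TPM in GMPs, 38.1, 41.8 and 36.2 TPM in preNeus and 1837, 2533 and 1766 TPM in matNeus and rose from GMPs to matNeus (log2 change 10.70 ± 0.17 SE, adjusted p = 1.73e-11). Fpr2 was listed at 0 in all 3 GMP libraries, at 93.5, 93.4 and 73.4 TPM in preNeus and at 274, 326 and 252 TPM in matNeus. Fpr3 did not reach 1 TPM in any library and was not tested. This domain held 12 CHD4 peaks, 7 of them kept in Gfi1-/- GMPs.

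Fli1, an ETS family transcription factor, differed from these in its expression. Its domain of 39791 bp (chr9:32505639-32545429) was covered over 60.4% in GMPs and wholly in preNeus, and its level was 89.5, 110.1 and 97.1 TPM in GMPs, 153, 166 and 179.9 TPM in preNeus and 93.7, 91.8 and 119 TPM in matNeus. The change from GMPs to matNeus was a log2 change of 0.03 ± 0.14 SE, adjusted p = 0.847, and 0.91 (adjusted p = 5.35e-05) once TPM were rescaled by median-of-ratios factors, while it rose from GMPs to preNeus (log2 change 0.74 ± 0.14 SE, adjusted p = 0.00105) and fell from preNeus to matNeus (log2 change -0.71 ± 0.14 SE, adjusted p = 0.00114). Among the 10 widest domains, those over Pxn (40765 bp), which encodes the adhesion adaptor paxillin, and Rcsd1 (39141 bp), which encodes a binding partner of actin capping protein, held genes that rose from GMPs to matNeus by 2.76 and 1.71 on the log2 scale. The other two lay in the bodies of Rin3 (37118 bp) and Ripor2 (35684 bp) without their starts.

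**Figure D2:**
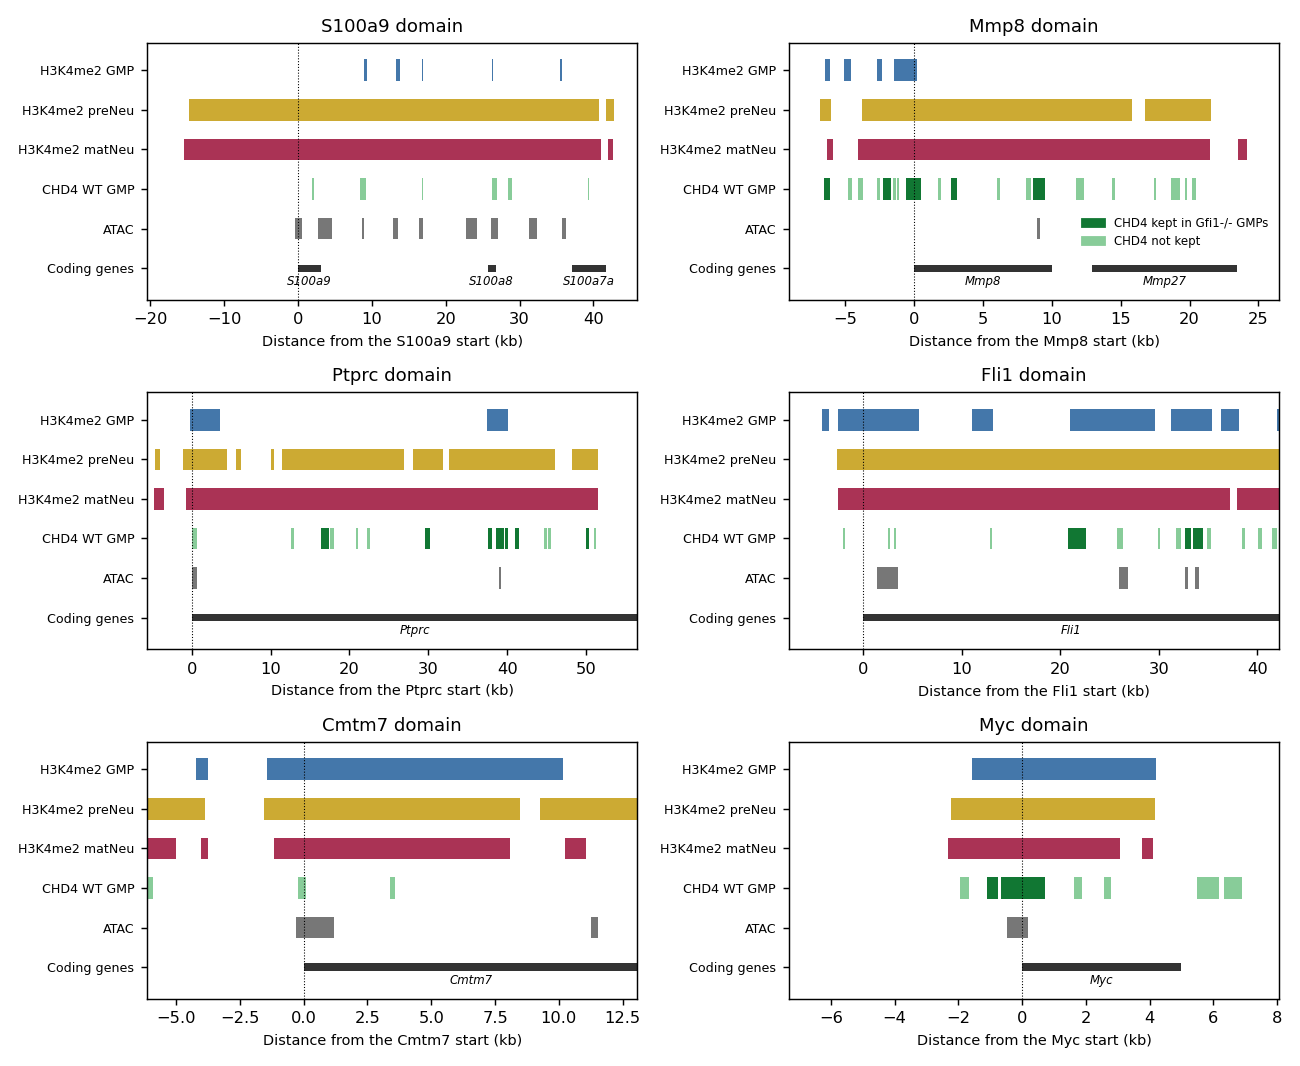
Maps of 6 domains with 5 kb on either side, drawn along the direction of the named gene (x axis, kb from its start). Rows show H3K4me2 peaks of GMPs, preNeus and matNeus, CHD4 peaks of WT GMPs (dark green where a CHD4 peak of Gfi1-/- GMPs overlapped, light green where none did), ATAC-seq peaks and coding genes. GMP peaks are short islands at S100a9, Mmp8 and Ptprc and span the domains at Cmtm7 and most of Myc, where the matNeu domain is the shorter mark.

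CHD4 peaks of WT GMPs stood in 1497 domains, 59.2% (57.2 to 61.1), and in 31.3% (30.7 to 31.9) of the narrower peaks. The domains held 4174 CHD4 peaks, 11.7% of the list, and 1033 domains held none, 463 held 1, 796 held 2 to 4 and 238 held 5 or more. Per length the order turned, with 18.7 CHD4 peaks per 100 kb of domain against 23.7 per 100 kb of narrower peaks. It turned again by location, since at gene starts the domains held 15.4 per 100 kb and the narrower peaks 8.06, whereas in gene bodies the values were 23.1 and 36.3 and outside coding genes 29.2 and 42.2. Across width classes the density stayed between 18.1 and 19.8 per 100 kb with overlapping 95% Poisson intervals, and the share of domains with a CHD4 peak, from 51.1% under 6000 bp to 86.3% at 20000 bp and over, rose with width.

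The CHD4 peaks lay in both the marked and the unmarked DNA of GMPs. Of the summits inside domains, 2566 fell in the 10.2 Mb that GMP peaks covered, 25.1 per 100 kb, and 1576 fell in the 12.1 Mb that they did not, 13.02 per 100 kb. The unmarked part thus held 38.05% of the summits, and preNeu peaks covered 83.2% of that part. The median fold enrichment of the CHD4 peaks was 7.99 in the marked part and 8.38 in the unmarked part. ATAC-seq peak centres showed a steeper difference, with 22.7 and 6.60 per 100 kb.

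Of the 4174 CHD4 peaks inside domains, 894 overlapped a CHD4 peak of Gfi1-/- GMPs, 21.4% (20.2 to 22.7), against 18.1% (17.7 to 18.6) of the 31616 peaks outside. The Gfi1-/- list was short, 7316 peaks against 35790, and what was kept followed peak strength from a fold enrichment of 5 upwards. Inside domains 2.08% of the 1879 peaks with a fold enrichment of 5 to under 10 were kept, 29.6% of the 1036 peaks from 10 to under 20 and 93.5% of the 586 peaks of 20 and over. The same classes outside gave 2.57%, 28.8% and 90.01%. Under a fold enrichment of 5, 0% of the 673 peaks inside and 3.09% of the 4977 peaks outside were kept. Differences in the strength of the 2 libraries and in CHD4 binding cannot be told apart from 1 library each.

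The domains richest in CHD4 peaks held between 14 and 17 of them. The domain of Mmp8 and Mmp27 (chr9:7554379-7579972, 25594 bp) held 17, of which 4 were kept in Gfi1-/- GMPs, and GMP peaks covered 7.88% of it. Mmp8, neutrophil collagenase, was at 10.1, 5.07 and 8.57 TPM in GMPs, 174, 206 and 234 TPM in preNeus and 5831, 7533 and 6443 TPM in matNeus, and it rose from GMPs to matNeus (log2 change 9.57 ± 0.21 SE, adjusted p = 1.19e-10). Mmp27, a related metalloproteinase, stayed at or below 6.49 TPM in every library, with an increase of 2.29 on the log2 scale. Ptprc followed with 15 CHD4 peaks, 7 of them kept.

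The domain of Hipk1, a nuclear kinase, held 14, with 2 kept. Hipk1 was at 34.5, 32.9 and 26.3 TPM in GMPs, 80.0, 82.1 and 109 TPM in preNeus and 99.8, 97.3 and 108 TPM in matNeus (log2 change 1.68 ± 0.16 SE, adjusted p = 2.86e-06 from GMPs to matNeus). Another domain with 14, 5 of them kept, lay in the body of Celf2 (chr2:6703124-6725220).

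**Figure D3:**
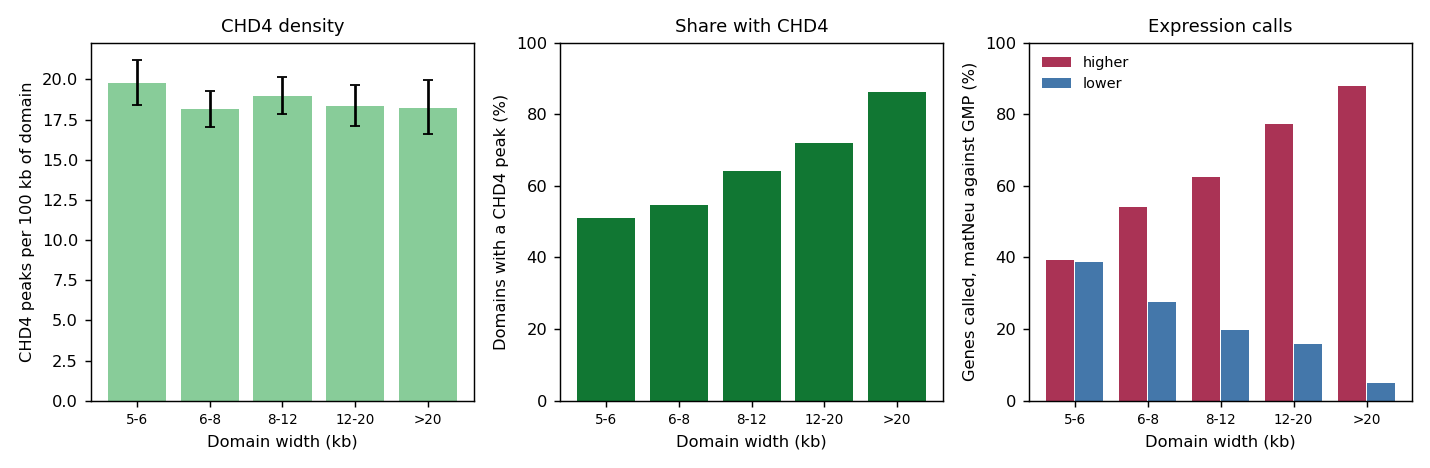
Domains by width class (x axis, kb). Left, CHD4 peaks of WT GMPs per 100 kb of domain with exact 95% Poisson intervals, middle, share of domains with at least 1 CHD4 peak (percent), and right, share of tested domain genes called higher or lower in matNeus than in GMPs (percent). The density stays between 18.1 and 19.8 while the share with CHD4 climbs from 51.1% to 86.3% and the share of genes called higher from 39.3% to 87.8%, on TPM as deposited (from 55.8% to 93.9% after median-of-ratios rescaling).

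The domains held the starts of 1893 protein-coding genes. Expression values were found for 1887 of them, 1837 passed the filter of at least 1 TPM in at least 3 libraries and were tested, and 50 did not pass. The middle of their levels was higher at each later stage. Over all 1887 genes, whether or not they passed the filter, the median level of a library lay between 33.9 and 36.5 TPM in GMPs, between 45.3 and 51.3 TPM in preNeus and between 59.5 and 67.6 TPM in matNeus, without overlap. In the 9430 genes that started in narrower peaks it fell, from 21.1 to 22.3 TPM in GMPs, to 10.7 to 12.4 TPM in preNeus and 4.19 to 4.84 TPM in matNeus. In these bulk samples fewer cells of a type and less RNA per cell cannot be told apart, nor can a fall in level and a fall in share in TPM, which sum to the same total in every library.

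The share of all transcripts that came from domain genes also grew. Unlike the median, such a sum is weighted towards the most abundant genes, among them S100a8, S100a9, Chil3 and Lyz2. The part of these genes in the growth was not tested. Domain genes took up 26.1% ± 0.581 (SD, n = 3) of all TPM in GMPs, 47.6% ± 0.767 in preNeus and 60.5% ± 0.484 in matNeus. The mitochondrial genome, which carries no histones, was listed as a domain too, and its 13 coding genes made up 4.11% ± 0.439 of all TPM in GMPs and 0.190% ± 0.0125 in matNeus. Without them the shares were 22.0% ± 0.227, 46.0% ± 0.656 and 60.3% ± 0.485.

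In the comparison of matNeus with GMPs, 1043 of the 1837 tested genes were higher (56.8%), where 22.8% of all 13061 genes tested were, and 480 were lower (26.1%), where 54.1% of all were (limma, adjusted p under 0.05). The median log2 change was 0.82 (quartiles -0.54 and 2.24), against -0.92 over all genes tested and -1.58 over the 8069 tested genes of narrower peaks, of which 1044 were higher and 5554 lower. In preNeus against GMPs 812 domain genes were higher (44.2%, all genes 14.7%) and 379 lower (20.6%, all genes 44.3%), with a median of 0.36 against -0.52. In matNeus against preNeus 831 were higher (45.2%, all genes 22.9%) and 527 lower (28.7%, all genes 39.8%), with a median of 0.31 against -0.32. Each pair of comparisons shares 1 group of libraries.

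Scaling moved these splits. TPM rescaled by median-of-ratios factors brought the median of all genes in matNeus against GMPs from -0.92 to -0.20, and 1316 domain genes were then higher and 283 lower, so that the higher share of the calls went from 68.5% to 82.3%. In preNeus against GMPs the rescaled counts were 1119 and 174, and in matNeus against preNeus 1015 and 422. The median of the domain genes stayed above that of all genes on either scale. The shares of 22.8% higher and 54.1% lower over all genes belong to TPM as deposited. Rescaled counts, here and below, are given without a rescaled share of all genes beside them. By themselves they thus do not show how far the domain genes differed from all genes.

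The less of a domain GMP peaks covered, the larger the rise of its genes. In the quartile of domains least covered in GMPs, from 0.964% to 28.6%, 197 of 242 tested genes (81.4%) were higher in matNeus than in GMPs and 30 lower, with a median log2 change of 2.95. In the next quartile 322 of 436 (73.9%) were higher and the median was 1.61, and in the third 292 of 547 (53.4%) with a median of 0.64. In the quartile most covered in GMPs, from 69.1% to 100%, 232 of 612 (37.9%) were higher and 243 (39.7%) lower, with a median of -0.08 against the -0.92 of all genes. After median-of-ratios rescaling this quartile had 343 higher (56.0%) and 153 lower, and the medians over the 4 quartiles were 3.79, 2.47, 1.47 and 0.76, so the order held while the sign of the last turned. Across the 1837 genes Spearman's rank correlation between the covered share and the log2 change was -0.44, a description over genes that share libraries and domains.

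On the TPM scale the order of levels turned between the outer quartiles. The genes of the least covered quartile had a median of 15.8 TPM ± 1.38 (SD, n = 3) in GMPs, 86.8 ± 6.65 in preNeus and 157 ± 11.9 in matNeus, and those of the most covered quartile 41.6 ± 2.28, 36.1 ± 2.27 and 35.0 ± 3.11. The same order was seen at the earlier step, with median log2 changes from GMPs to preNeus of 1.42, 0.66, 0.32 and -0.09 over the 4 quartiles. After rescaling these were 1.89, 1.13, 0.81 and 0.38, with 254 genes of the most covered quartile higher and 109 lower, so the lower TPM of that quartile at the later stages held on the TPM scale and not on the rescaled one. The quartiles differed in location too, since 34.3% of the least covered domains and 79.6% of the most covered held a gene start.

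**Figure D4:**
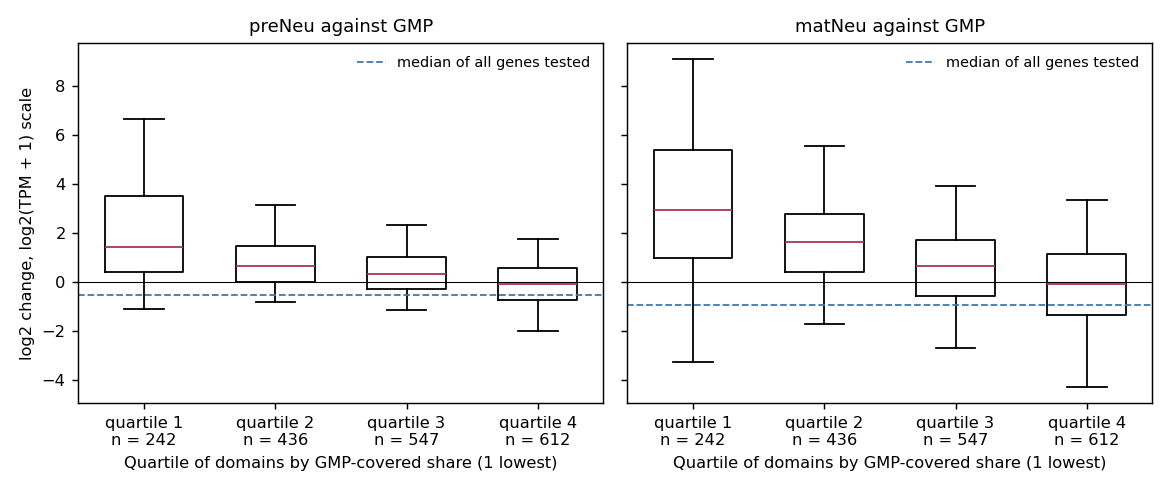
Log2 change of the tested domain genes (y axis, log2(TPM + 1) scale) by quartile of domains ordered by the share covered in GMPs (x axis, quartile 1 least covered, n genes below), for preNeus against GMPs (left) and matNeus against GMPs (right). Boxes give the median and quartiles, whiskers the 5th and 95th percentiles, and the dashed line the median of all genes tested. The median falls from 2.95 to -0.08 across the quartiles in matNeus against GMPs, and from 3.79 to 0.76 after median-of-ratios rescaling, which is not drawn.

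Width went the same way. Among genes of domains under 6000 bp 192 of 489 were higher (39.3%) and 189 lower (38.7%) in matNeus than in GMPs, and among those of domains of at least 20000 bp 72 of 82 (87.8%) were higher and 4 lower. The median log2 change over the 5 width classes was -0.02, 0.71, 1.13, 1.77 and 2.31. After rescaling the narrowest class had 273 higher (55.8%) and 114 lower, and the medians were 0.80, 1.54, 1.97, 2.61 and 3.17. Domains of genes that were higher were 8034 bp wide at the median, with 47.2% covered in GMPs, and domains of genes that were lower 6370 bp, with 69.1%. Genes of domains with 5 or more CHD4 peaks were higher in 106 of 159 cases (66.7%), where 22.8% of all genes tested were. Those of domains without a CHD4 peak were higher in 486 of 929 (52.3%), and the domains between these are not given here. Wide domains held more CHD4 peaks, and the part of width in this difference was not tested.

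The largest increases from GMPs to matNeus were those of Mmp9, S100a9, Fpr1, C5ar1, Slfn1 and Lilr4b. Mmp9, gelatinase B of the tertiary granules, was at 0.852, 0.87 and 1.30 TPM in GMPs, 359, 459 and 387 TPM in preNeus and 6334, 6594 and 6688 TPM in matNeus. Its domain of 18513 bp met a single GMP peak of 225 bp, 1.22% of its length, and the change was a log2 change of 11.68 ± 0.13 SE, adjusted p = 3.4e-12. S100a9 and Fpr1 came next, followed by C5ar1, the receptor for complement C5a, at 0.224, 0.159 and 2.74 TPM in GMPs, 302, 336 and 358 TPM in preNeus and 1922, 2239 and 2073 TPM in matNeus, with GMP peaks over 15.3% of its domain (log2 change 10.22 ± 0.36 SE, adjusted p = 1.52e-09). Slfn1, of the Schlafen family of growth regulators, changed by 10.20 and Lilr4b, an immunoglobulin-like receptor, by 9.75 on the log2 scale. Both have near-identical relatives whose reads the quantification may have split. All 6 lay in domains covered over at most 15.3% in GMPs.

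The largest decreases were those of Ms4a3, Myc, mt-Co2, Rrm2, Cks1b and Mrps18b. Ms4a3, a membrane protein of GMPs, was at 1168, 1094 and 1188 TPM in GMPs, 706, 670.2 and 630.5 TPM in preNeus and 0.446, 0.915 and 1.63 TPM in matNeus (log2 change -9.21 ± 0.19 SE, adjusted p = 8.34e-11). Its domain of 6235 bp was wholly covered in GMPs and held 4 CHD4 peaks, 2 of them kept. Myc, the growth-promoting transcription factor, was at 386, 462 and 438 TPM in GMPs, 17.2, 26.3 and 31.4 TPM in preNeus and 0.089, 0.468 and 0.349 TPM in matNeus (log2 change -8.37 ± 0.23 SE, adjusted p = 3.65e-10), with 86.1% of its 5393-bp domain covered. The mark thus stayed wide in matNeus over a gene whose transcript was listed at or below 0.468 TPM in all 3 libraries. Rrm2, the small subunit of ribonucleotide reductase, Cks1b, a regulator of cyclin-dependent kinases, and Mrps18b, of the mitochondrial ribosome, changed by -7.06, -6.49 and -6.32 on the log2 scale. The remaining gene, mt-Co2 on the mitochondrial genome, was at 86.4, 0.0216 and 0.534 TPM in matNeus, so 1 matNeu library stood far from the others.

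The domains with the least GMP cover were those over Camp (0.964%), Mmp9 (1.22%), Slfn4 (1.37%) and the bodies of Ankrd33b (1.44%) and Nhsl2 (2.04%). Camp, the precursor of the antimicrobial peptide cathelicidin, was at 1.99, 1.91 and 0.653 TPM in GMPs, 12044, 9316 and 9261 TPM in preNeus and 126, 102 and 50.3 TPM in matNeus. It rose from GMPs to preNeus (log2 change 12.02 ± 0.33 SE, adjusted p = 1.69e-09) and fell from preNeus to matNeus (log2 change -6.85 ± 0.33 SE, adjusted p = 2.59e-08), while the 19498-bp domain was still called in matNeus and held no CHD4 peak of GMPs. Slfn4 rose from GMPs to matNeus by 8.57 on the log2 scale.

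Domains covered wholly in GMPs numbered 46, and the 5 widest are described here. Cmtm7, a membrane protein of the CMTM family, was at 1388, 1301 and 1738 TPM in GMPs, 482, 456 and 386 TPM in preNeus and 384, 358 and 292 TPM in matNeus (log2 change -2.09 ± 0.15 SE, adjusted p = 2.39e-07), and its GMP peak of 11597 bp was wider than the matNeu domain of 9225 bp. Bahcc1, a chromatin protein, changed by -2.63 on the log2 scale. Mef2d, a MADS-box transcription factor, was at 49.4, 66.1 and 67.1 TPM in GMPs, 7.003, 7.77 and 6.68 TPM in preNeus and 18.4, 26.8 and 45.6 TPM in matNeus, a decrease from GMPs to matNeus of log2 -1.07 ± 0.29 SE, adjusted p = 0.00558 that did not hold after rescaling (log2 change -0.20, adjusted p = 0.525). A domain of 9096 bp held Hes7, Aloxe3 and 9130213A22Rik, none of which reached the expression filter, and the remaining one lay in the body of Elf1.

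Against 22.8% of all genes tested higher and 54.1% lower in matNeus than in GMPs (median -0.92), the domain genes of 7 lists of known neutrophil and progenitor functions went as follows. Granule protein genes had the lowest median GMP cover of the 7. Of 47 genes on the list 21 started in domains, with a median of 15.9% covered in GMPs and a median width of 12905 bp. In matNeus against GMPs 18 were higher and 3 lower (median log2 change 6.11). In preNeus against GMPs 19 were higher and none lower, where 14.7% of all genes tested were higher and 44.3% lower. From preNeus to matNeus 8 rose and 9 fell, where 22.9% of all genes tested rose and 39.8% fell. Falls at that step were thus about as common as among all genes. Chil3, a chitinase-like protein, was at 61.9, 38.9 and 35.5 TPM in GMPs, 41328, 37138 and 43422 TPM in preNeus and 205, 178 and 217 TPM in matNeus, so that it rose by 9.81 and then fell by 7.66 on the log2 scale. Lyz2, lysozyme, was at 1088, 613 and 765 TPM in GMPs, 35691, 29738 and 29242 TPM in preNeus and 28376, 35226 and 26946 TPM in matNeus (log2 change 5.23 ± 0.19 SE, adjusted p = 1.98e-09 from GMPs to matNeus). Of the 26 list members tested outside domains, 18 were higher and 7 lower in matNeus than in GMPs.

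Of 96 receptor genes 61 started in domains and 60 were tested, with a median of 39.1% covered in GMPs, and 52 held a CHD4 peak in their domain. In matNeus 52 were higher and 3 lower than in GMPs (median 2.89), or 57 higher and 2 lower after rescaling. From preNeus to matNeus 51 rose and 5 fell, where 22.9% of all genes tested rose and 39.8% fell. Outside domains, 24 of the 33 receptor genes tested were higher and 4 lower in matNeus than in GMPs (median 2.02). Cd177, a surface protein that pairs with the protease PR3, was at 7.19, 3.74 and 8.36 TPM in GMPs, 4349, 4714 and 4960.0 TPM in preNeus and 1359.7, 1982 and 1349 TPM in matNeus with 4.27% of its domain covered in GMPs (log2 change 7.75 ± 0.24 SE, adjusted p = 6.58e-10). Selplg, the ligand of P-selectin, was at 639, 593 and 563 TPM in GMPs, 144, 174 and 169 TPM in preNeus and 3273, 3495 and 3897 TPM in matNeus (log2 change 2.57 ± 0.11 SE, adjusted p = 6.24e-09) with 75.9% covered. Csf3r, the receptor of the growth factor G-CSF, was at 132, 131 and 142 TPM in GMPs, 191, 201 and 225 TPM in preNeus and 3946, 3340.1 and 4336 TPM in matNeus (log2 change 4.82 ± 0.12 SE, adjusted p = 2.18e-10). Cxcr2, the receptor that draws neutrophils out of the marrow, rose by 8.42 on the log2 scale, with 31.8% of its 16283-bp domain covered in GMPs.

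Transcription factor genes showed mixed directions. Of 100 on the list 47 started in domains, with a median of 63.8% covered in GMPs, and 34 were higher and 9 lower in matNeus than in GMPs (median 1.68). Outside domains, 23 of the 48 list members tested were higher and 20 lower (median 0.58). Spi1, which encodes PU.1, was at 229, 438 and 472 TPM in GMPs, 776, 824 and 698 TPM in preNeus and 1937, 2183 and 1939 TPM in matNeus (log2 change 2.48 ± 0.23 SE, adjusted p = 2.01e-06). Mxd1, an antagonist of MYC, was at 9.50, 14.3 and 10.4 TPM in GMPs, 192, 239 and 265 TPM in preNeus and 2251, 2262 and 3136 TPM in matNeus (log2 change 7.69 ± 0.19 SE, adjusted p = 2.18e-10). Junb and Fos, subunits of AP-1, rose by 5.50 and 3.91 on the log2 scale. Those in domains that fell were Myc, Lyl1, Cux1, Myb, Nfkb1, Etv6, Runx1, Gfi1 and Cebpa. After rescaling 38 were higher and 6 lower, and Cux1, Nfkb1 and Etv6 no longer passed the test. Gfi1 itself, named here after its values were seen, was at 8.01, 5.88 and 17.5 TPM in GMPs, 20.1, 23.2 and 29.2 TPM in preNeus and 0, 0 and 0.145 TPM in matNeus and fell from GMPs to matNeus (log2 change -3.32 ± 0.35 SE, adjusted p = 6.25e-06). Its domain (chr5:107719372-107729874, 10503 bp) was covered over 80.7% in GMPs and held 6 CHD4 peaks, 2 of them kept in Gfi1-/- GMPs. For these stages the paper reports an active Gfi1 promoter and, by western blot, more GFI1 protein in matNeus than in preNeus. The transcript level thus does not stand for the protein, and the cause of the difference was not tested.

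Genes of feedback and immediate early regulation were marked further in GMPs. Of 61 genes 31 started in domains, with a median of 65.4% covered in GMPs, and 29 were higher and none lower in matNeus than in GMPs (median 3.27). From preNeus to matNeus 26 rose and none fell, where 22.9% of all genes tested rose and 39.8% fell. Outside domains, 18 of the 27 list members tested were higher and 5 lower in matNeus than in GMPs (median 2.27). Ccl6, a chemokine, was at 17.5, 14.3 and 14.2 TPM in GMPs, 8.33, 9.12 and 10.4 TPM in preNeus and 6637, 6572 and 5663 TPM in matNeus (log2 change 8.59 ± 0.14 SE, adjusted p = 1.73e-11). Rgs19, a regulator of G-protein signalling, Ier2, an immediate early gene, and Nfkbia, the inhibitor of NF-kappaB, rose by 1.14, 3.27 and 3.62 on the log2 scale.

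Of 71 genes of actin and migration 52 started in domains, with a median width of 11364 bp, and 44 were higher and 4 lower in matNeus than in GMPs (median 1.50), whereas 50 were higher and none lower after rescaling. Actb and Actg1, the cytoplasmic actins, were the most abundant, with Actb at 4872, 4295 and 4758 TPM in GMPs, 16019, 15863 and 14046 TPM in preNeus and 25046, 19002 and 26465 TPM in matNeus (log2 change 2.33 ± 0.13 SE, adjusted p = 4.08e-08) and Actg1 rising by 1.59 on the log2 scale. Arhgdib, an inhibitor of small GTPase cycling, was highest in preNeus, at 2643, 2015 and 2494 TPM in GMPs, 8415, 8162 and 6614 TPM in preNeus and 3847, 4585 and 3654 TPM in matNeus (log2 change 0.76 ± 0.14 SE, adjusted p = 0.000513 from GMPs to matNeus). Arpc1b, of the ARP2/3 complex, rose by 1.24. Outside domains, 13 of the 19 list members tested were higher and 4 lower in matNeus than in GMPs, with a median of 1.89, above the 1.50 inside.

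Most chromatin regulators and progenitor genes started outside the domains. Of 42 regulators of H3K4 methylation and NuRD 11 started inside, of which 8 were higher and 3 lower (median 0.79), or 8 higher and 0 lower after rescaling, whereas of the 30 tested elsewhere 3 were higher and 18 lower (median -1.16). Kmt2e, of the KMT2 family, rose by 1.22 and Ep300, an acetyltransferase, by 1.69 on the log2 scale. Wdr5, a core subunit of H3K4 methyltransferases, was at 135, 140.0 and 123 TPM in GMPs, 115, 115 and 138 TPM in preNeus and 73.8, 71.7 and 78.6 TPM in matNeus (log2 change -0.82 ± 0.12 SE, adjusted p = 9.54e-05), a decrease that turned to 0.056 after rescaling. Of 36 progenitor genes 8 started in domains, with a median of 92.7% covered in GMPs and a median width of 6148 bp, and 6 were lower and 1 higher in matNeus than in GMPs (median -5.16), and 26 of the 28 tested elsewhere were lower. Myb, a progenitor transcription factor, fell by 4.74 on the log2 scale from GMPs to matNeus. Ccnd2, cyclin D2, was at 214, 174 and 281 TPM in GMPs, 15.7, 7.69 and 9.52 TPM in preNeus and 69.0, 68.4 and 73.9 TPM in matNeus, so that it fell to preNeus (log2 change -4.26 ± 0.24 SE, adjusted p = 3.31e-07) and rose again to matNeus (log2 change 2.63 ± 0.24 SE, adjusted p = 3.84e-06).

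**Figure D5:**
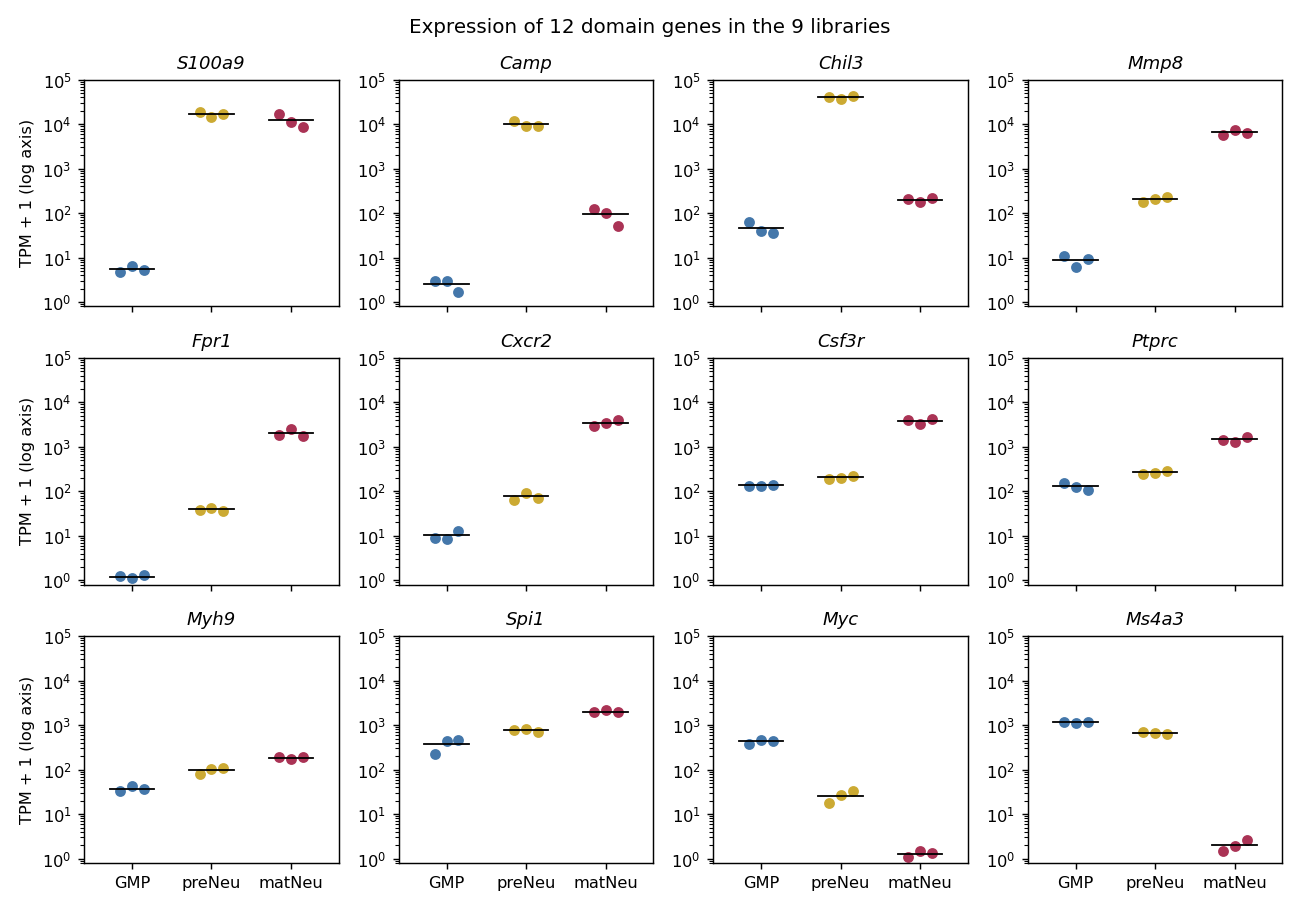
TPM plus 1 (y axis, log scale) of 12 genes that start in wide domains, in the 3 libraries each of GMPs, preNeus and matNeus (points), with the mean of each group (bar). S100a9, Camp and Chil3 jump by the preNeu stage, Mmp8, Fpr1 and Cxcr2 climb at both steps, and Myc and Ms4a3 fall to near the bottom of the axis in matNeus.

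The wide matNeu peaks without any GMP peak, 216 in number, stood apart in location. They had a median width of 6174 bp, 25 (11.6%) held a gene start, 85.1% (65.2 to 97.8) of their length was covered in preNeus, and 49.1% (42.5 to 55.7) held a CHD4 peak of WT GMPs. Of the 25 genes that started in them, 21 were higher and 1 lower in matNeus than in GMPs, where 22.8% of all genes tested were higher and 54.1% lower.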

How the data were processed

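H3K4me2, CHD4 and ATAC-seq peaks were used as the authors deposited them, with the fold enrichment and the −log10 q-value of each peak as the peak caller gave them, on mouse build GRCm38 (mm10). The submitters' processing notes name Trimmomatic 0.36, BWA 0.7.17, MACS2 2.1.0 and kallisto 0.44.0, without saying which file each made. Each list came from 1 library, depth is unknown, and replicates were not pooled. Expression was deposited by the authors as TPM per gene. The methods text describes a count-based workflow, and how the TPM were made is not stated there. The lists of H3K4me3 and GFI1 peaks were not used, because 2179 and 3105 of their peaks lay beyond the chromosome ends of this build, and the preNeu and matNeu ATAC-seq lists were identical and were used as 1 list.

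Peaks were overlapped by at least 1 bp, widths and covered shares were taken from the deposited coordinates, gene starts from GENCODE M21 and sequence from RefSeq GRCm38.p6. Genes that reached 1 TPM in 3 or more libraries entered the test, on log2(TPM + 1) with limma 3.58.1 in R 4.3.3 (trend, cell type as the only term) over all 13061 genes, with Benjamini-Hochberg adjustment and a threshold of 0.05. Fold changes are on that scale and understate the change of low genes. An exact permutation test of 3 against 3 libraries cannot go below 0.1. The script was tested on simulated data, on which some of the genes given a known change were called and others were missed. Shares carry 95% Wilson intervals, for counting error only. Python 3.11.15, pandas 2.3.3 and scipy 1.17.1 were used otherwise. A CHD4 peak was called kept where a CHD4 peak of Gfi1-/- GMPs overlapped it.

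The members and gene lists were chosen with earlier results of these data known. Named were the 10 widest domains, the 5 with the most CHD4 peaks, the 5 least and the 5 most covered in GMPs (the widest first among ties), the 6 largest increases and decreases from GMPs to matNeus, and the most abundant domain genes of each list. Some named by this rule are not reported here. Other genes are the partners of these in a domain or members of a list. Alternatives were the pseudocount, the low-value filter, median-of-ratios scaling, a replicate block, leaving out each library, other width, overlap and q-value limits, and gene bodies in place of starts.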

Additional observations from a re-analysis of the deposited data

How the results depend on the processing

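Rescaling TPM by median-of-ratios factors moved 3 results. The domain genes called lower fell to 283 in matNeus against GMPs and to 174 in preNeus against GMPs, and the median log2 change of domain genes in matNeus against GMPs became 1.67. With domains of at least 8000 bp, 988 domains remained, with 39.5% covered in GMPs, 94.3% in preNeus and 68.7% holding a CHD4 peak. Fewer genes then started in a domain, with 528 higher and 126 lower in matNeus against GMPs, 425 and 108 in preNeus against GMPs, and 413 and 173 in matNeus against preNeus, and a median of 1.46. With domains of at least 4000 bp the shares were 51.9%, 97.4% and 54.1%. With H3K4me2 peaks of −log10 q of at least 5, 894 domains were left, with 97.6% covered in preNeus, 46.3% holding a CHD4 peak, 14.1 CHD4 peaks per 100 kb and 15.03% of these kept. With CHD4 peaks of that limit, the density was 17.8 per 100 kb. The cause of these shifts was not tested, except that a width or q-value limit leaves fewer or more domains by construction.

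Leaving out each library gave 1009 to 1040 domain genes higher and 447 to 485 lower in matNeus against GMPs (median 0.78 to 0.87), 730 to 820 and 315 to 389 in preNeus against GMPs, and 781 to 835 and 484 to 535 in matNeus against preNeus. Without the 2 domains off chromosomes 1 to 19 and X, chosen after seeing the data, the first comparison gave 1043 higher and 467 lower. Of 806 values of 51 of the named genes under these alternatives, 801 kept direction and side of the threshold. Not all named genes were among the 51, and Cux1, Nfkb1 and Etv6, which no longer passed the test after rescaling, were left out. The change of Fli1 from GMPs to matNeus lay between -0.087 and 0.11 when a library was left out, being -0.037 without GMP replicate 1 and -0.087 without matNeu replicate 3, and was 0.91 after rescaling. The change of Wdr5 went to 0.056 and that of Mef2d to -0.20 after rescaling.

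With a replicate block, 1044 domain genes were higher and 480 lower in matNeus against GMPs (median 0.82), 814 and 373 in preNeus against GMPs, and 837 and 532 in matNeus against preNeus. None of the values checked for the 51 named genes changed its side of the threshold. Libraries with the same number did not deviate together across cell types (correlations -0.039 to 0.123), so the numbers were not taken as pairs. The single library behind each peak list limits every comparison of peaks.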
